A study of Mus musculus with 12 samples.

Results

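Esrrb, the gene of the receptor whose own binding was measured, held 33 of the 86201 regions in the deposited count table. These regions were taken by position alone. Their centre lay on chromosome 12 inside Esrrb or within 100 kb of it (mm10, 86361117 to 86521628, forward strand), and their nearest RefSeq protein-coding gene was Esrrb. Of the 33, 32 lay inside the gene and 1 lay 31.2 kb before its first start site. They are numbered 1 to 33 in order along the gene, and all 33 passed the filter on low counts.

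ESRRB is an orphan nuclear receptor that binds DNA at an extended half-site of the nuclear receptor type and recruits coactivators without a known natural ligand. In mouse embryonic stem cells it is a member of the naive pluripotency network, in which the factors bind their own genes and those of one another. NANOG, a homeodomain factor of the same network, is known to activate Esrrb, and Esrrb can replace some functions of Nanog in self-renewal.

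Chromatin of embryonic stem cells of 2 kinds was immunoprecipitated with an antibody to ESRRB and sequenced (ChIP-seq), in 3 libraries of each kind. Both are named as Nanog knockouts and carry Esrrb in their names: NanogKO:Esrrb, here called without Nanog, and NanogKO:Esrrb:Nanog, here called with Nanog. The labels give the same cell line name, N{delta}:cE:iN, for every library. Cells grew untreated in serum with leukaemia inhibitory factor. The sources used here do not give how Nanog was restored, what drives Esrrb in these cells, or whether the libraries of a kind came from separate cultures. Reads from the gene itself and from any added copy of Esrrb cannot be told apart. The p-values therefore rest on a spread between libraries that may be technical, and counts of ESRRB reads do not check the Nanog labels.

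Counts in regions summed to between 2734338 and 8382646 per library, and all 3 libraries with Nanog held more than all 3 without. Totals of sequenced or mapped reads were not used here, so these sums do not give sequencing depth. Libraries are called A, B and C, after the letters of their columns. Signal is given as CPM, counts scaled to the total of reads in regions and by TMM, which assumes that most regions do not change. A change of binding shared by every region would not show. Means are given with the SD over 3 libraries and log2 fold changes with their standard error (SE). A region was called where edgeR's quasi-likelihood test gave a Benjamini-Hochberg adjusted p under 0.05 over all 84892 regions tested.

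RefSeq gives Esrrb 2 start sites, 60527 bp apart, and their promoter sequences are shown because ESRRB regions were listed at one of them and not at the other. The sequences run from 250 bases before to 50 bases after each start, 5′ to 3′ on the forward strand of GRCm38.p6 (mm10). Capitals mark bases inside a deposited region, which is region 7.
Esrrb start site 1, chr12:86360867-86361166: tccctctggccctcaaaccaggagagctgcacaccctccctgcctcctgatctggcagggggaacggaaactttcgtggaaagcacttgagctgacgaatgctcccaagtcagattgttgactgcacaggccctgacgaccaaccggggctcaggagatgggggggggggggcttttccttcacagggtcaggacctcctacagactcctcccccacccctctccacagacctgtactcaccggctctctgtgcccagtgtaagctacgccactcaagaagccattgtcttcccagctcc
Esrrb start site 2, chr12:86421394-86421693: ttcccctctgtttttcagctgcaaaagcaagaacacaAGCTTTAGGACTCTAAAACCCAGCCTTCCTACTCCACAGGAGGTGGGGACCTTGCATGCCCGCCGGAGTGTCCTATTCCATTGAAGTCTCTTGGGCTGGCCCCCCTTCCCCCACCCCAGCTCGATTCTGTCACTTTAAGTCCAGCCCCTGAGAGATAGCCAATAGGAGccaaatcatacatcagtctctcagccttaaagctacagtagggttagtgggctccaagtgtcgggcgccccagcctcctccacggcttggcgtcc
No region touched the first promoter, and the nearest one began 4222 bp after that start. At the second, 168 of the 300 bases lay in region 7, which ended 46 bp before the start, and region 8 followed just after it. The nuclear receptor half-site was searched on both strands in its extended form TCAAGGTCA, as AAGGTCA, and as its core AGGTCA, each of which lies within the one before. These letters matched neither promoter. Of 32851 RefSeq promoters of the same length, 0.423%, 4.72% and 16.3% held a match to the 3 forms.

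ESRRB regions were dense along Esrrb in the deposited table. This density rests mostly on the peak list with Nanog, since 81.8% of the Esrrb regions were in that list alone, against 61.4% of the whole table. Only 72 of 21900 protein-coding genes held more regions under the same rule and 8 others held as many, against a median of 3 over the 16052 genes with a region. Inside the gene there were 19.9 regions per 100 kb, against a median of 2.55 in the 2429 genes of at least 100 kb, of which 8 were denser. The median gap between neighbouring Esrrb regions was 2548 bp, against 8751 bp over all neighbouring regions of the table. Region 1 lay before the gene, 6 regions between the start sites and 26 after the second start. The longest gap, 35209 bp, lay between region 1 and region 2 and held the first start site.

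Signal was uneven over the locus, with the largest part in 1 region. Region 29, at 86501361 to 86502935 and 141.0 kb from the first start, was the strongest, in the top 1% of all regions tested by mean log-CPM (percentile 99.8). It held 122.3, 113 and 146.9 CPM without Nanog and 131.2, 129.8 and 138.5 CPM with Nanog. The libraries of the lines overlapped, and its log2 fold change was 0.06 ± 0.10 (SE), with a 95% interval of -0.15 to 0.27 (edgeR quasi-likelihood, Benjamini-Hochberg adjusted p = 0.742). Its share of the summed signal of the 33 regions was 34.7% ± 1.6 without and 28.7% ± 2.0 with Nanog (SD, n = 3 per line).

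The other strong regions were region 30, beside it, and regions 28, 2 and 6. Region 28, at 86498493 to 86499384, held 32.1, 23.6 and 36.7 CPM without Nanog and 31.2, 33.9 and 31.2 CPM with Nanog. Region 2, the first inside the gene, at 86365339 to 86365912, held 25.4, 22.7 and 32.6 CPM without and 21.7, 24.2 and 25.2 CPM with Nanog. Region 6, at 86402831 to 86403406, held 14.2, 24.1 and 16.7 CPM without and 23.8, 21.4 and 19.4 CPM with Nanog. In each of these the lines overlapped, and none was called, with 95% intervals of the log2 fold change of -0.26 to 0.36, -0.52 to 0.13 and -0.15 to 0.59. The 5 strongest regions together held 63.5% ± 2.1 of the summed signal without and 58.1% ± 2.3 with Nanog. Wider regions held more reads, with a Spearman correlation of 0.93 between width and mean log-CPM over the 33 regions, which share their libraries. Per kb of width, region 29 held 80.9 CPM without and 84.6 CPM with Nanog, and region 2 held 46.8 and 41.3 CPM.

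**Figure D1:**
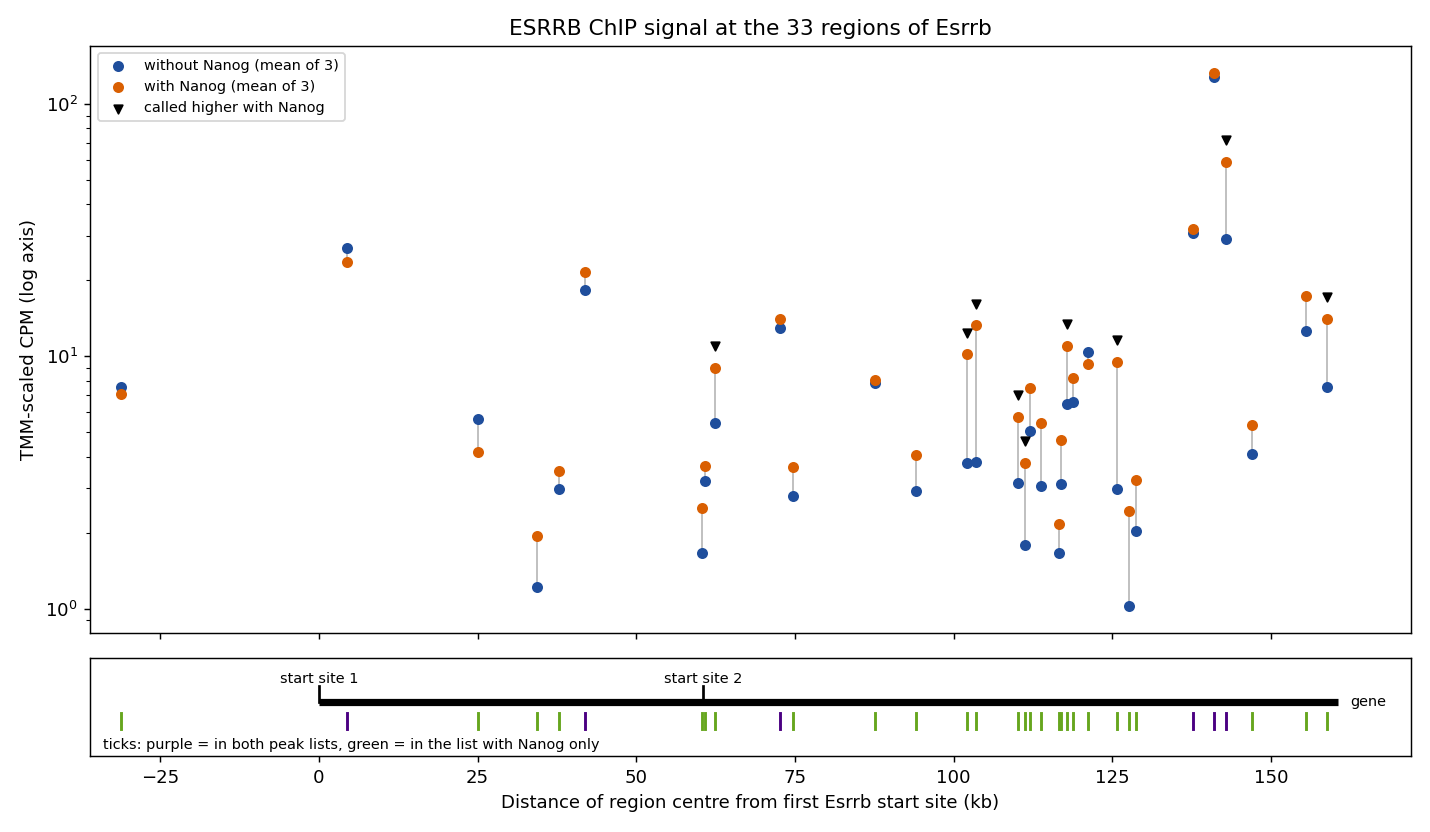
Mean TMM-scaled CPM (log axis) of 3 libraries per line at each of the 33 Esrrb regions against the distance of the region's centre from the first start site in kb; grey lines join the 2 means of a region, triangles mark called regions, and the lower strip shows the gene, its start sites and the peak list status of each region. The 9 called regions lie between 62.4 and 158.8 kb from the first start, and the strongest region, at 141.0 kb, has nearly the same mean in both lines.

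With Nanog, ESRRB signal rose at 9 of the 33 Esrrb regions and fell at 0 (edgeR quasi-likelihood, adjusted p under 0.05). Over all regions tested, 9.42% were called higher and 9.78% lower, beside 27.3% and 0% at Esrrb. Of the 33, 27 were in the peak list with Nanog alone. Over the whole table, 10.8% of the tested regions in that list alone were called higher, and lower calls were rarer (1.92%). The 0 lower calls among those 27 regions are therefore near the share of their class. At an unadjusted p under 0.05 the test gave 13 regions higher and 0 lower, against 15.2% and 16.4% of all regions. DESeq2 gave 5 higher and 0 lower of 31 tested, against 5.77% and 6.12% of all regions that it tested. All 9 called regions lay after the second start site, which 26 of the 33 regions did. Of the 20 regions over 100 kb from the first start, 8 were called. The ratio of the means ran from 1.65 to 3.49, and it was at least 2 in 5 of the 9 regions.

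Region 30, at 86503231 to 86504789, had the smallest adjusted p and the most signal of the called regions. It held 27.2, 28.1 and 32.6 CPM without Nanog and 56.1, 62.9 and 57.7 CPM with Nanog, so that every library with Nanog was above every library without. The log2 fold change was 1.00 ± 0.13 (SE; edgeR quasi-likelihood, Benjamini-Hochberg adjusted p = 2.631e-06).

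The steepest increases were at regions 25, 15 and 14, which were weak without Nanog. Region 25, at 86486650 to 86487192, held 4.47, 2.52 and 1.96 CPM without and 9.62, 11.3 and 7.65 CPM with Nanog, a log2 fold change of 1.78 ± 0.30 (edgeR adjusted p = 0.000103). Region 15, at 86464479 to 86464974, held 2.24, 5.05 and 4.12 CPM without and 11.2, 17.0 and 11.6 CPM with Nanog, a log2 fold change of 1.75 ± 0.27 (edgeR adjusted p = 3.015e-05). Region 14, 1088 bp before it at 86463024 to 86463390, held 3.36, 4.21 and 3.73 CPM without and 7.0, 14.7 and 8.79 CPM with Nanog, a log2 fold change of 1.44 ± 0.30 (edgeR adjusted p = 0.000908). In all 3 regions library B was the highest of the 3 with Nanog, and the lines were separate. Library B was also the highest with Nanog at the called regions 16, 22, 30 and 33. Without that library the log2 fold changes of regions 25, 15 and 14 were 1.625, 1.53 and 1.06, and the calls held.

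Region 33, at 86519579 to 86520309 near the end of the gene, held 5.97, 6.17 and 10.6 CPM without and 12.7, 15.5 and 14.0 CPM with Nanog. Region 22, at 86478606 to 86479346, held 5.22, 7.85 and 6.28 CPM without and 10.1, 13.3 and 9.68 CPM with Nanog. Region 9, at 86423318 to 86423802 and the first called region after the second start, held 5.59, 6.17 and 4.51 CPM without and 10.1, 9.32 and 7.52 CPM with Nanog. These 3 regions had log2 fold changes of 0.83 ± 0.23, 0.76 ± 0.24 and 0.75 ± 0.25 (SE), with no overlap between the lines.

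Regions 16 and 17 lay close together and were the weakest that were called. Region 16, at 86470981 to 86471369, held 4.10, 1.96 and 3.33 CPM without and 5.83, 6.13 and 5.35 CPM with Nanog. Region 17, at 86472268 to 86472486, held 1.86, 1.12 and 2.35 CPM without and 4.52, 3.77 and 3.06 CPM with Nanog, from 5, 4 and 12 reads without and 31, 32 and 24 with. Their log2 fold changes were 0.90 ± 0.30 and 1.02 ± 0.34 (SE), and again the lines did not overlap.

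**Figure D2:**
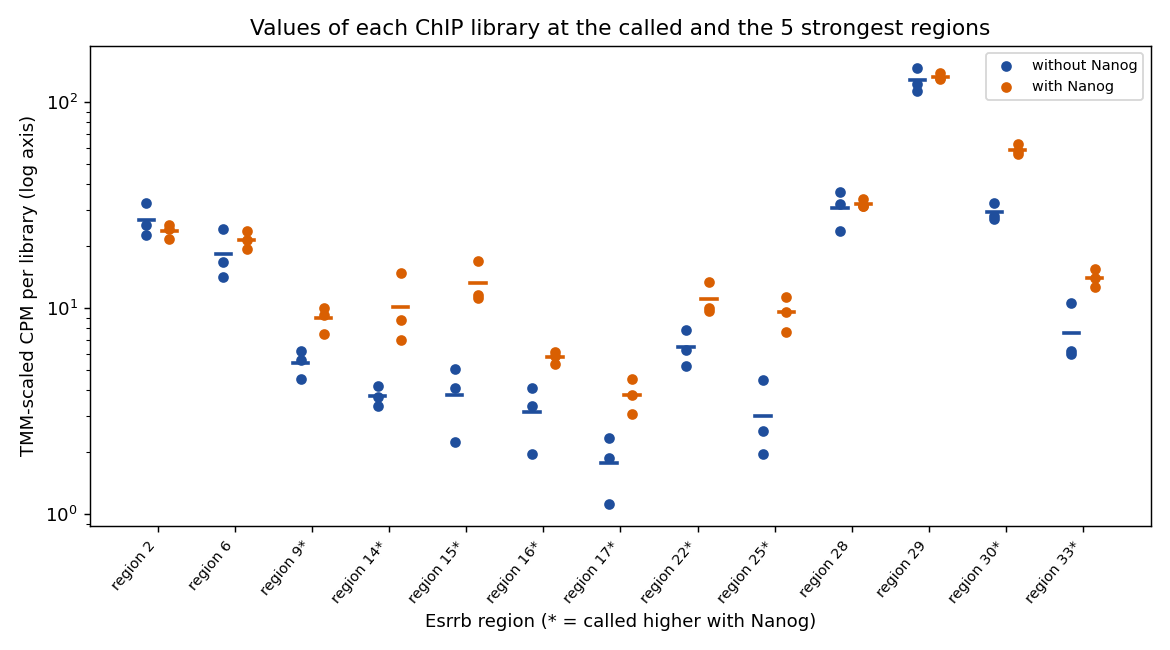
TMM-scaled CPM of each library (points, log axis) and the mean of each line (bars) at the 9 called regions, marked with an asterisk, and the 5 strongest regions, of which region 30 is both. At the called regions every library with Nanog is above every library without, and at regions 2, 6, 28 and 29 the lines overlap.

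Calls at regions 14, 15, 25 and 30 held in every alternative that tested them. Those at regions 9, 16, 17 and 22 were each lost with DESeq2 (adjusted p from 0.0671 to 0.169) and on leaving out some libraries. Regions 9, 16 and 22 also lost their call after thinning to equal totals, where region 16 fell to 0.25 on the log2 scale (edgeR adjusted p = 0.739), and region 17 lost it with a loess offset. The call at region 33 was lost without library B with Nanog (edgeR adjusted p = 0.0526), where 4 calls were left in all.

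At 24 regions no difference was called, and their log2 fold changes ran from -0.49 to 1.07. Of these, 4 had all libraries with Nanog above all without (regions 19, 26, 27 and 32), as did the 9 called regions, which makes 13 of 33. Over all regions tested, 17.0% had this order and 16.8% the opposite, which 0 Esrrb regions had. Among regions in the peak list with Nanog alone, 12 of 27 at Esrrb had all libraries with Nanog above and 0 the opposite order, against 20.1% and 6.67% of such regions in the whole table. Region 32, at 86516230 to 86516939, held 10.4, 14.3 and 12.9 CPM without and 17.4, 18.0 and 16.6 CPM with Nanog, and its interval, 0.07 to 0.83, left out 0 before adjustment (edgeR adjusted p = 0.0928). Region 26 held 2, 2 and 9 reads without and 18, 17 and 21 with Nanog, so that its interval, 0.22 to 1.91, was wide (edgeR adjusted p = 0.0685). Without library C of the line without Nanog its log2 fold change was 1.89 and it was called (edgeR adjusted p = 0.0245). Region 4, the weakest of the locus, at 86395406 to 86395528, held 2.24, 0.841 and 0.588 CPM without and 1.90, 1.89 and 2.04 CPM with Nanog, and the lines overlapped. The 4 regions with a log2 fold change below 0 were regions 1, 2, 3 and 24. Region 24, at 86481978 to 86482607, lay among called regions and held 8.58, 12.1 and 10.6 CPM without and 8.31, 10.9 and 8.79 CPM with Nanog, with overlap between the lines and an interval of -0.62 to 0.28. Region 3, at 86385979 to 86386254, had the lowest value, with 5.22, 3.93 and 7.84 CPM without and 4.08, 4.36 and 4.08 CPM with Nanog, again overlapping (edgeR adjusted p = 0.233).

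Region 19, at 86474754 to 86475173, was the nearest to a call of those not called. It held 2.24, 3.65 and 3.33 CPM without and 3.94, 6.6 and 5.73 CPM with Nanog, a log2 fold change of 0.79 ± 0.31 (edgeR adjusted p = 0.0683). Region 10, at 86433454 to 86434021 and also in the list without Nanog, held 14.9, 11.2 and 12.8 CPM without and 15.3, 12.6 and 14.4 CPM with Nanog, with overlap and an interval of -0.27 to 0.53. The 24 regions not called spanned means of 1.02 to 127.4 CPM without and 1.94 to 133.2 CPM with Nanog, and 12 of them had a mean under 5 CPM in the line without Nanog and fold changes between 0.21 and 1.07 on the log2 scale. The precision was lower without Nanog, where the SD over 3 libraries was a median of 30.3% of the mean, against 14.5% with Nanog.

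Regions at the start sites were not called. Region 7, in the promoter of the second start printed above, held 2.61, 1.4 and 0.981 CPM without and 3.21, 2.12 and 2.17 CPM with Nanog, on 5 to 7 reads per library without Nanog. Region 8, just after that start, held 2.61, 4.49 and 2.55 CPM without and 3.50, 4.72 and 2.80 CPM with Nanog. In both the lines overlapped, and the intervals of the log2 fold change, -0.09 to 1.50 and -0.44 to 0.87, leave room for a large difference. Between the start sites, none of 6 regions was called, where 9.42% of all regions tested were called higher and 9.78% lower. At such shares few calls are to be found among 6 regions. The log2 fold changes of the 6 ran from -0.49 at region 3 to 0.86 at region 4, with a median of 0.25. Region 4 rested on 6, 3 and 3 reads without Nanog. Its value ran from 0.44 to 1.47 with 1 library left out and was 0.25 with a loess offset. Over the 26 regions after the second start the median was 0.61. The difference between these parts of the gene was not tested.

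**Figure D3:**
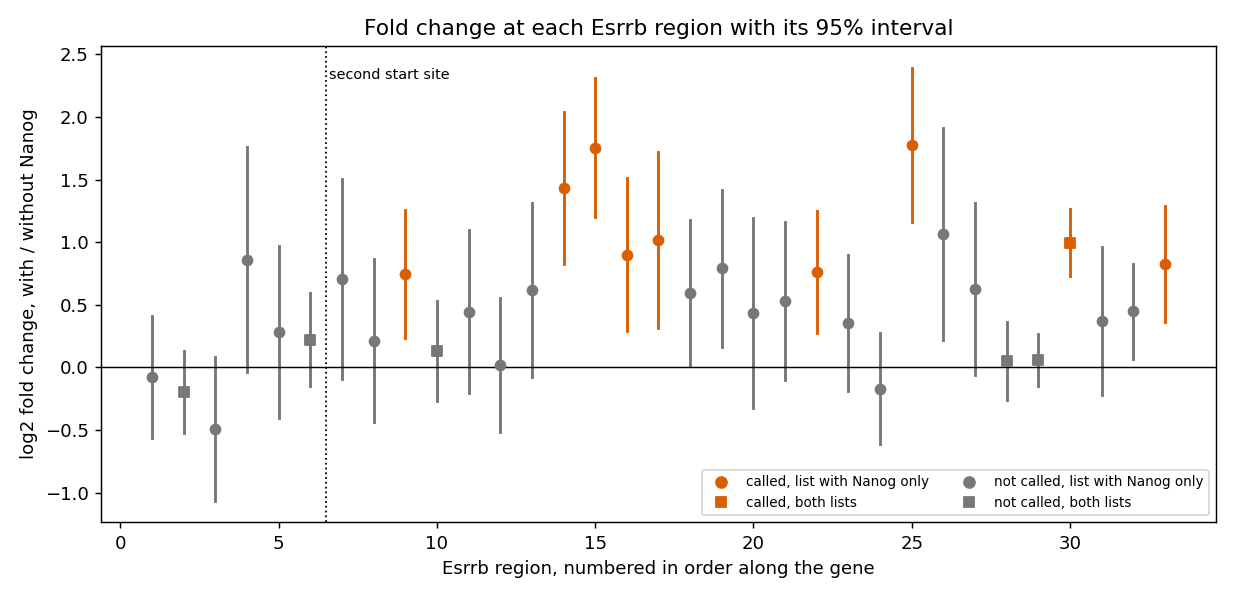
Log2 fold change with against without Nanog at each Esrrb region in order along the gene, with its 95% interval from the edgeR quasi-likelihood fit; orange marks called regions, grey the others, squares regions in both peak lists and circles regions in the list with Nanog only. The called regions range from 0.75 to 1.78, and only 4 of the 33 values are below 0. The dotted line for the second start site is drawn just before region 7, but region 7 ends 46 bp before that start, which lies between regions 7 and 8.

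Over the 33 regions the median log2 fold change was 0.53, against -0.01 over all regions tested, and 29 of 33 values were above 0, against 41480 of 84892. Most of these regions are in the table through the peak list with Nanog alone, a class whose values lean upward in the whole table. In that class, 24 of 27 Esrrb values were above 0, with a median of 0.62, against 30651 of 51603 and a median of 0.11 over the table. Of the regions in both lists, 5 of 6 Esrrb values were above 0, with a median of 0.10, against 10828 of 32615 and a median of -0.19. The summed signal was 356.4, 338.5 and 402.8 CPM without and 447.5, 490.1 and 455.4 CPM with Nanog, or 365.9 ± 33.2 and 464.3 ± 22.7 CPM (SD, n = 3 per line). Every library with Nanog was above every library without, and the ratio of the means was 1.27. With the strongest region left out it was 1.39, from 238.5 ± 15.7 to 331.1 ± 25.2 CPM. All 33 regions have the start and end of their peak in the list with Nanog, so the sum is taken over windows drawn in the line where it is higher, and it does not stand for the whole locus.

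Regions 29 and 30 lie 295 bp apart, and their signals relative to each other are given for each library. Region 30 held 22.3%, 24.8% and 22.2% of the CPM of region 29 in the libraries without Nanog and 42.8%, 48.4% and 41.7% in those with Nanog. This ratio does not depend on how libraries are scaled, but it does depend on the windows, which are the peaks drawn with Nanog. The peak without Nanog covered 25.7% of region 30 and 57.1% of region 29. The ratio was 23.1% ± 1.5 without and 44.3% ± 3.6 with Nanog (SD), and no library overlapped. The pair was chosen after its values were seen, so no test is given.

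**Figure D4:**
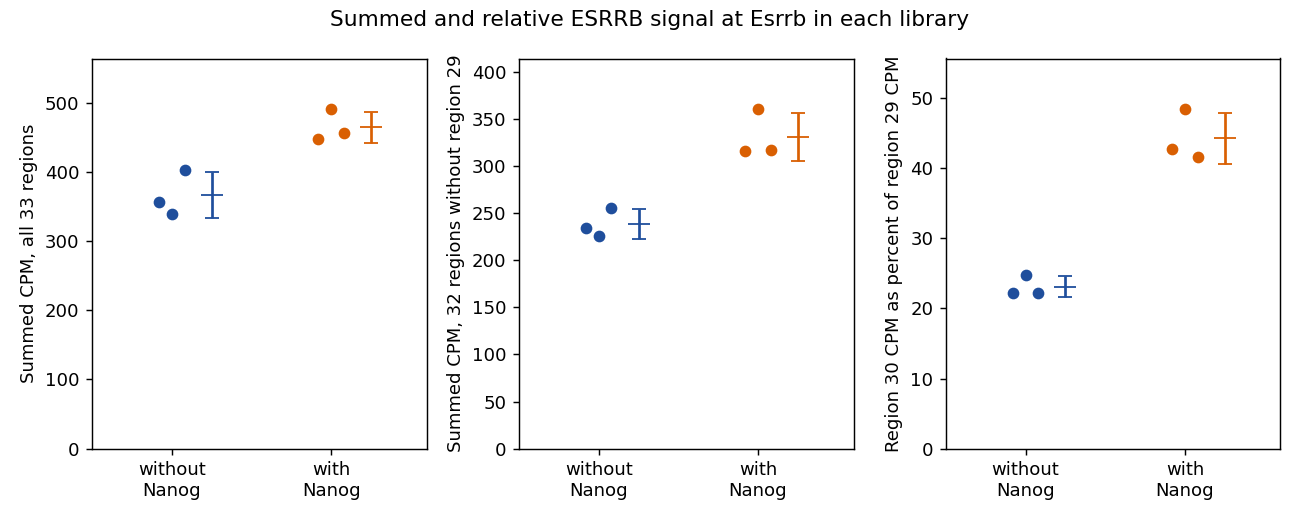
ESRRB signal at Esrrb in each library (points) with the mean and SD of 3 libraries (bars): summed TMM-scaled CPM of all 33 regions, the same without region 29, and the CPM of region 30 as a percent of that of region 29. In all 3 panels the libraries with Nanog lie above those without.

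The deposited peak lists hold 1 set of peaks per line, with 34956 peaks without and 85537 with Nanog. The libraries with Nanog also held more counts in regions, a total that does not give sequencing depth. By an overlap of at least 1 bp, the list with Nanog held a peak in all 33 Esrrb regions. The list without Nanog held one in 6, namely regions 2, 6, 10, 28, 29 and 30. That is 18.2% of the Esrrb regions in both lists, against 37.8% of the whole table. The number in both lists was 5 with at least 50% of the region covered, and 4 with centres within 200 bp. In region 30 the peak without Nanog covered 400 of 1559 bp, 25.7% of the region, and began 1017 bp from its start, whereas the peak with Nanog covered all of it. In region 29 the peak without Nanog covered 899 of 1575 bp. Peaks and counts come from the same libraries, so being in a list depends in part on the direction of the difference. Of the 27 Esrrb regions in the list with Nanog alone, 8 were called higher (29.6%) and 0 lower, against 10.8% and 1.92% of all regions tested in that list alone. Of the 6 in both lists, 1 was called higher and 0 lower, against 7.40% and 20.8% of all regions in both lists.

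The regions nearest to those chosen were assigned to the neighbouring genes. On the near side, the region at 86320378 to 86321144 lay 40.4 kb from Esrrb and 26.1 kb from Gpatch2l, and held 6.63 ± 1.3 CPM without and 10.4 ± 0.57 CPM with Nanog (log2 fold change 0.63 ± 0.23, edgeR adjusted p = 0.0543). The next member, region 1, held 7.55 ± 0.67 and 7.08 ± 0.76 CPM. Beyond the end of the gene, the region at 86612189 to 86612839 lay 90.9 kb from Esrrb and 66.2 kb from Vash1, and held 11.8 ± 1.3 and 14.3 ± 2.9 CPM (edgeR adjusted p = 0.379). Assignment by distance does not say which gene a region acts on.

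Other genes of the naive pluripotency network were taken by the same rule, 19 in all. They held 290 tested regions, of which 46 were higher (15.9%) and 22 lower (7.59%) with Nanog, beside the 9.42% and 9.78% over all regions. Higher calls alone were found at 8 of these genes and lower calls alone at 1, Sox2, the SOX factor that pairs with OCT4. Klf4, a zinc finger factor of naive pluripotency, held 7 higher and 0 lower calls among 21 regions, and its summed signal went from 325.0 ± 35.6 to 500.2 ± 9.9 CPM. Zfp42, the naive marker also known as Rex1, held 8 higher and 1 lower call among 18, with sums of 392.1 ± 19.5 and 426.2 ± 12.8 CPM. Prdm14, a repressor of lineage genes, held 5 higher and 0 lower among 24, and Pou5f1, which encodes OCT4, 4 and 0 among 9. Tfcp2l1, a naive factor that works with ESRRB, held 1 call of each kind among 18 tested regions, and Sall4, a zinc finger factor, 1 higher and 5 lower among 17. Nanog itself held 1 higher call among 8 regions. The counts of calls were not tested between genes.

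**Figure D5:**
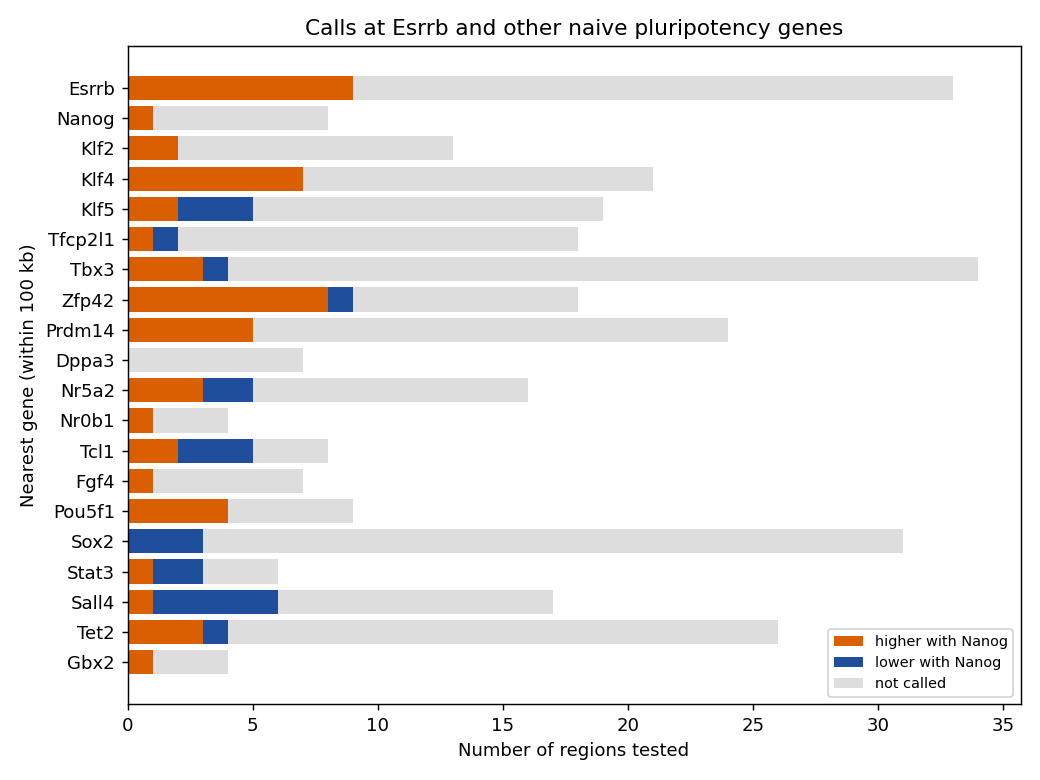
Number of tested regions called higher (orange), lower (blue) or not called (grey) with against without Nanog at Esrrb and 19 other naive pluripotency genes, by nearest gene within 100 kb. Esrrb has 9 higher and 0 lower calls among 33 regions, and Tbx3, with 34 regions, has 3 and 1.

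Among the 390 genes with at least 20 tested regions, 61 had no lower call, and 14 of these had a share of higher calls at least as large as that of Esrrb, Esrrb included. Over all 16016 genes with a tested region, 14 held more higher calls than Esrrb and 11 others held 9. The genes whose summed signal was most like that of Esrrb over the 6 libraries, by the Euclidean distance of the centred log2 sums, were Rbfox2, Zfp423, Slit3 and Prdm14. Their distances were 0.087, 0.125, 0.174 and 0.175, against a median of 0.50 over 389 genes with at least 20 tested regions. Rbfox2, a splicing regulator, held 8 higher and 2 lower calls among 24 regions. Zfp423, a zinc finger factor, held 6 and 0 among 35, and Slit3, a secreted guidance protein, 6 and 3 among 33.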

How the data were processed

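The data are the deposited read counts per region, whole numbers without normalization, for 6 ESRRB ChIP libraries. Per the submitters' processing notes, the tools used on mm10 were MACS2, Bowtie2, bedtools 2.26.0, SAMtools 1.4.1, bcl2fastq 2.19.1 and deepTools. The sources used here do not state settings, the read counter, the peak threshold or how duplicates were treated. The labels describe fixation with formaldehyde alone or followed by a second crosslinker, without saying which library had which. The deposited peak lists give positions only. Input libraries were not analysed here. Column letters are not the replicate numbers of the labels, so columns were assigned to lines and not to single samples. No 2 libraries of a line were duplicates (chi-square per degree of freedom 1.33 to 2.53).

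Regions were filtered with filterByExpr, which kept 84892 of 86201, scaled by TMM and tested by the quasi-likelihood test (glmQLFit, glmQLFTest) of edgeR 4.0.16 under R 4.3.3, with the line as the design's one factor. A prior count of 2 was added for log-CPM. The fit was tested on simulated data. The alternatives were other scalings, DESeq2 1.42.0, other count filters, thinned libraries, each library left out and a block by letter. Also taken were narrower limits around the gene and stricter rules for overlap with the peak lists. Genes are those of RefSeq GRCm38.p6, whose table gives spans without exons, so exons and introns were not used. Coordinates are 1-based. Given in full were the called regions, the 5 strongest, the weakest, that nearest the start and those beside the limits. Regions 3, 7, 8, 10, 19, 24, 26 and 32 were added after their values were seen. The members and lists were chosen with earlier results of these data known.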

Additional observations from a re-analysis of the deposited data

How the results depend on the processing

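The count of 9 higher Esrrb regions stayed within 1.5 times under other scalings, no count filter and the loess offset. The offset was added after seeing the data. The count of 0 lower regions held in every alternative. Narrower limits around the gene could not change either count. All 33 regions lie within 50 kb of it, and the limit of the gene itself drops only region 1, which was not called. A mean count of at least 50 gave 4 higher from 11 regions tested, thinning to equal totals 5 from 23, and DESeq2 5 from 31. Leaving out 1 library gave 4 to 8 higher, with 4 without library B with Nanog. Counts over all regions moved too, from 7997 higher to 4988 without that library, 4978 of 33017 at a mean count of at least 50, 5229 of 70933 after thinning and 4881 of 84528 with DESeq2. The median log2 fold change was 0.22 at a mean count of at least 50, 0.405 after thinning and 0.399 with the loess offset, and 0.42 to 0.54 with 1 library left out. These alternatives differed from the main fit in the reads, regions or libraries used, in the scaling or in the test. Whether read depth accounts for the calls lost at weak regions was not tested. No called region changed sign, and 6 regions not called did: without library B without Nanog, region 12 was at -0.29, region 28 at -0.10 (up to 0.236 over the libraries left out) and region 29 at -0.0147 (up to 0.193). Without library B with Nanog, region 1 was at 0.00766 (down to -0.144), region 5 at -0.133 (up to 0.495) and region 8 at -0.0216 (up to 0.534). Without library C with Nanog, region 12 was at -0.0672 (up to 0.402), and after thinning regions 12 and 28 were at -0.0668 and -0.0901. The replicate block by column letter gave 11 higher and 0 lower, and 10095 higher over all regions. Calls were gained by 5 regions: 19 and 32 with this block, 4 and 13 without library A without Nanog, 32 without B and 26 without C of that line, and 19 without library A with Nanog. The letters were not taken as pairs, since no label says what they mark. Deviations from the line means correlated by 0.083, 0.22 and 0.13 between libraries of the same letter. Between libraries of unlike letters the values ran from -0.16 to 0.045, all below those of the same letter. Whether the letters mark shared cultures or batches was not tested.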

Other observations

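Genes of the related receptors and of a coactivator of ESRRB were taken by the same rule. Esrra, which encodes the related receptor ERR-alpha, held 1 region, and signal there fell from 114.4 ± 14.6 to 83.96 ± 6.6 CPM with Nanog, or -0.45 ± 0.11 on the log2 scale (Benjamini-Hochberg adjusted p = 0.00386 by edgeR). Esrrg, the gene of ERR-gamma, held 1 higher and 1 lower call among 20 regions. Ncoa3, a coactivator that ESRRB is known to recruit in embryonic stem cells, held 0 higher and 2 lower calls among 14 regions, with summed signal of 356.1 ± 35.4 and 303.1 ± 8.1 CPM (SD, n = 3 per line). Over all regions tested, 9.42% were called higher and 9.78% lower, so 2 lower calls among 14 regions is near that share. The counts of calls at these genes were not tested.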
